A study of Mus musculus with 18 samples.

Results

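The genes described here are 10 that handle or sense extracellular nucleotides and adenosine in intestinal dendritic cells (DCs): the ectoenzymes Entpd1 and Nt5e, adenosine deaminase (Ada), the adenosine receptors Adora2a and Adora2b, the ATP-gated channels P2rx4 and P2rx7, and the G protein-coupled receptors P2ry6, P2ry10 and P2ry14. They were chosen by name, as the rows whose Ensembl identifier maps to these symbols, and all 10 were found among the 54232 rows of the count table. The 18 RNA-seq libraries are of DCs of C57BL/6J mice whose genotype is given as CD11a KO, so that every group, the reference groups included, lacks a wild-type counterpart here. CD11a, which Itgal encodes, pairs with CD18 to form the leukocyte integrin LFA-1. Single-positive CD11b+ DCs, single-positive CD103+ DCs and double-positive CD11b+ CD103+ DCs were each taken from the small intestinal lamina propria (LP) and from intestinal lymph nodes (LN), with 3 libraries in each of these 6 groups. The sample titles name no treatment that separates the groups. The protocol text in the labels is shared with other series, so whether its infection steps apply to these libraries is not clear. The headers of the LN libraries read mLN, taken here as mesenteric lymph node, which animals that had lost those nodes could not supply. Whether the lymphadenectomy applies to the LP animals is not clear. The age and number of animals behind a library, and how the LN cells were gated, are not given in the sources used here.

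ATP and other nucleotides leave stressed, activated or dying cells and act on P2 receptors, of which the P2X members are ion channels and the P2Y members couple to G proteins. CD39, the product of Entpd1, removes phosphates from ATP and ADP to leave AMP, and CD73, the product of Nt5e, turns AMP into adenosine. Adenosine raises cyclic AMP in DCs through receptors encoded by Adora2a and Adora2b, the second of which needs more adenosine, and it ends as inosine through adenosine deaminase. Extracellular ATP from the microbiota and adenosine are both known as modulators of DCs and T cells in the gut.

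Library totals lay between 23574292 and 46901985 counts, with medians of 27311923 in the LP and 27401041 in the LN. Levels are given as CPM, the counts of a gene per 1000000 counts of its library after TMM scaling. Itgal was still at 6.45 to 26.6 CPM in every library, so its transcript did not mark the knockout. All 9 LP libraries carried the Y-linked Ddx3y (median 65.0 CPM, highest 74.4 CPM), with Xist no higher than 0.286 CPM, whereas all 9 LN libraries carried Xist (15.4 to 89.1 CPM), so that tissue and the sex of the animals cannot be told apart. In 2 LN libraries, CD11b+ replicate 3 and double-positive replicate 3, both transcripts were present, and results were also computed without them. The sort was visible in the LP, where Itgae, which encodes CD103, was at 1238 to 1440 CPM in CD103+ DCs and 92.1 to 293 CPM in CD11b+ DCs. In the LN, Itgae was only at 27.0 to 40.0 CPM in CD103+ DCs, against 5.57 to 6.65 CPM in CD11b+ DCs. Itgam, which encodes CD11b, was at 4.85 to 5.76 CPM in LN double-positive DCs and at 13.8 to 25.7 CPM in LN CD11b+ DCs. The cDC1 marker Xcr1 was at 1391 to 1410 CPM in LP CD103+ DCs and at 94.9 to 103 CPM in LN CD103+ DCs. The other LN groups also carried it, at 53.2 to 87.6 CPM in double-positive and 44.4 to 49.0 CPM in CD11b+ DCs. In the LP, Xcr1 was at 24.9 to 27.3 CPM in double-positive and 11.7 to 15.8 CPM in CD11b+ DCs. The libraries are bulk samples, in which fewer cells of a type and less RNA per cell cannot be told apart.

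The first question was whether each gene differed between LN and LP within a subset. A gene was called at an adjusted p under 0.01 (edgeR quasi-likelihood test, Benjamini-Hochberg over the 17074 genes tested) and a fold change over 2. All 10 members were tested. In CD11b+ DCs 4 of the 10 were called, where 15.2% of all tested genes were. Nt5e and Adora2a were higher in the LN (background in that direction 10.3%) and Entpd1 and Adora2b lower (4.93%). In CD103+ DCs 7 of the 10 were called, against 35.0% of all genes. Nt5e, P2rx4 and Adora2a were higher (19.8%) and Entpd1, P2rx7, P2ry6 and P2ry14 lower (15.1%). In double-positive DCs 8 of the 10 were called, against 32.1%. Nt5e, P2rx4, P2ry14 and Adora2a were higher (18.6%) and Entpd1, P2ry6, Adora2b and Ada lower (13.6%). P2ry10 was the member called in none of the 3 comparisons, and 9 of 10 were called in at least 1, as were 45.4% of all genes. Nt5e and Adora2a were called higher in all 3 subsets, as were 7.21% of genes, and Entpd1 was called lower in all 3, as were 2.40%. The median log2 fold change of the 10 genes was -0.18 in CD11b+ DCs, 0.07 in CD103+ DCs and -0.13 in double-positive DCs, beside 0.03, 0.04 and 0.07 over all tested genes. Calls went in both directions in each subset.

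**Figure D1:**
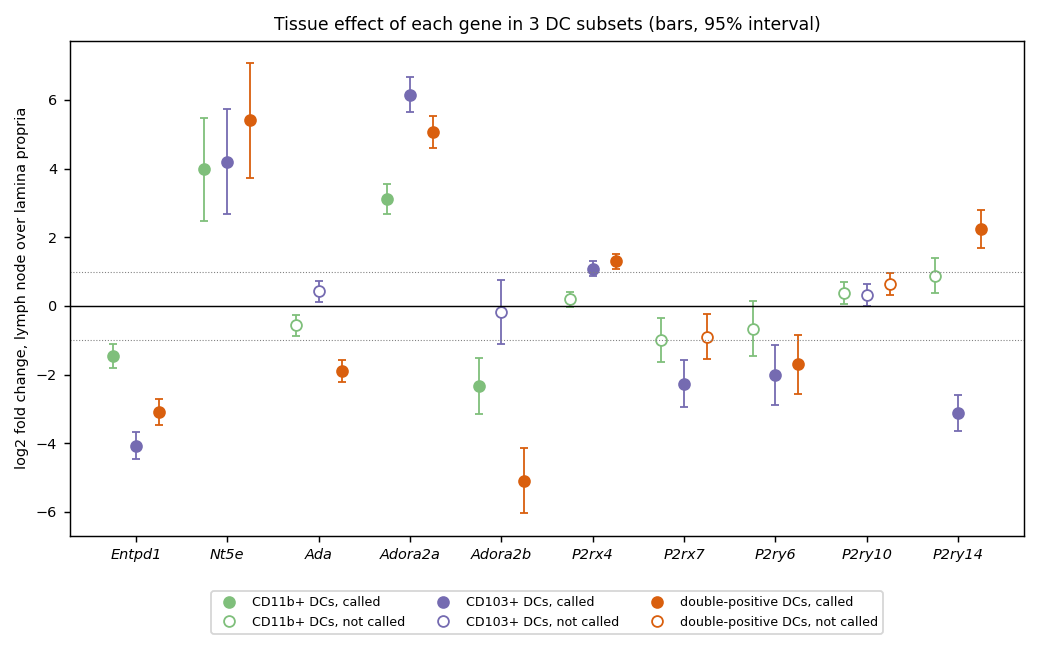
Log2 fold change of LN over LP (y axis) for each of the 10 genes (x axis) in each of the 3 DC subsets. Bars are 95% intervals of the edgeR fit with 3 libraries a group, filled points were called and dotted lines mark a fold change of 2. Nt5e and Adora2a lie above and Entpd1 below 0 in all 3 subsets, while P2ry14 lies at -3.12 in CD103+ and 2.25 in double-positive DCs.

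Whether the tissue effect itself differed between subsets was tested with an F test over the same fit, called at an adjusted p under 0.01 whatever the fold change. It was called for 6 of the 10 genes, Entpd1, P2rx4, P2ry14, Adora2a, Adora2b and Ada, against 31.5% of all tested genes. The adjusted p was 0.45 for Nt5e, 0.43 for P2ry10, 0.12 for P2ry6 and 0.027 for P2rx7, so these 4 were not called. For P2rx7 this depended on the fit, since its adjusted p was 3.8e-03 with the replicate block, 6.7e-03 with DESeq2 and 9.3e-03 on total counts. It was 9.0e-03 without LP double-positive replicate 1 and 2.7e-03 without LN CD103+ replicate 2.

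Of the 2 ectoenzymes, Entpd1 was a gene of LP DCs. Its transcripts come from chr19:40612366-40741602 (GRCm38, plus strand, ENSMUSG00000048120). In the LP, Entpd1 was at 97.4, 96.7 and 112 CPM in CD11b+ DCs, at 126, 136 and 121 CPM in CD103+ DCs and at 137, 124 and 148 CPM in double-positive DCs. In the LN, Entpd1 was at 39.2, 25.5 and 46.3 CPM in CD11b+ DCs, at 8.05, 6.07 and 8.68 CPM in CD103+ DCs and at 16.1, 15.0 and 16.9 CPM in double-positive DCs. Every LP library was above every LN library, and only the first pair of the order, LP double-positive and LP CD103+ DCs, overlapped. The fall from LP to LN was 2.76-fold in CD11b+ DCs (log2 -1.47, SE 0.16, adjusted p = 2.9e-06), 16.8-fold in CD103+ DCs (log2 -4.07, SE 0.19, adjusted p = 1.2e-11) and 8.52-fold in double-positive DCs (log2 -3.09, SE 0.18, adjusted p = 2.2e-10). These falls differed between subsets (F test, adjusted p = 7.0e-07). CD39 is also known on macrophages, and in LP CD103+ DCs the summed level of 8 macrophage markers was 37.2 to 45.7 CPM, against 656 to 1478 CPM in LP CD11b+ DCs, whose Entpd1 was lower. In the LN the groups had the same order by this sum as by Entpd1, with 280 to 452 CPM in CD11b+, 78.5 to 83.0 CPM in double-positive and 10.5 to 13.8 CPM in CD103+ DCs. The part of macrophage transcripts in the Entpd1 values was not tested.

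Nt5e, which makes adenosine from AMP, had the opposite pattern at far lower levels. Its locus is chr9:88327197-88372092 (GRCm38, plus strand, ENSMUSG00000032420). In the LP, Nt5e was at 0.574, 0.549 and 0.884 CPM in CD11b+ DCs, at 0.318, 1.05 and 0 CPM in CD103+ DCs and at 0.186, 0.474 and 0.107 CPM in double-positive DCs. These LP values rest on 0 to 49 counts a library. In the LN, Nt5e was at 7.37, 15.0 and 9.62 CPM in CD11b+ DCs, at 15.0, 8.22 and 4.6 CPM in CD103+ DCs and at 12.3, 10.9 and 10.1 CPM in double-positive DCs. No LN library overlapped an LP library, and the 3 subsets overlapped one another within the LN. The log2 rise was 3.98 (SE 0.71, adjusted p = 3.2e-04) in CD11b+ DCs, 4.20 (SE 0.72, adjusted p = 7.9e-05) in CD103+ DCs and 5.40 (SE 0.79, adjusted p = 1.7e-05) in double-positive DCs. With so few LP counts a single library moved the size of the rise, to 5.74 in CD103+ DCs without LP CD103+ replicate 2 and to 6.21 in double-positive DCs without LP double-positive replicate 2. CD73 is also carried by T cells, and the summed level of 12 T cell markers moved with it, at 7.38 to 39.9 CPM in the LP and 330 to 722 CPM in the LN, with no marker at 0 throughout a group. In LN CD103+ and LN double-positive DCs the 3 libraries had the same order by T cell sum and by Nt5e. In LN CD11b+ DCs the highest sum, 617 CPM, went with the most Nt5e and the lowest, 330 CPM, with the middle value. The part of these transcripts in the Nt5e difference was not tested.

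Ada, the enzyme that turns adenosine into inosine, depended on the subset in the LP more than on the tissue. It lies at chr2:163726584-163750239 (GRCm38, minus strand, ENSMUSG00000017697). In the LP, Ada was at 21.9, 22.5 and 22.4 CPM in CD11b+ DCs, at 4.67, 6.02 and 6.28 CPM in CD103+ DCs and at 32.6, 29.3 and 39.7 CPM in double-positive DCs. In the LN, Ada was at 15.8, 15.4 and 13.99 CPM in CD11b+ DCs, at 7.01, 8.27 and 7.45 CPM in CD103+ DCs and at 8.09, 10.3 and 8.84 CPM in double-positive DCs. LP double-positive DCs stood highest and LP CD103+ DCs lowest, and only LN double-positive and LN CD103+ DCs overlapped as neighbours in the order. Ada fell 3.74-fold from LP to LN in double-positive DCs (log2 -1.90, SE 0.15, adjusted p = 1.0e-08). The change was under the fold limit in CD11b+ DCs (log2 -0.56, SE 0.14, adjusted p = 4.9e-03) and was not called in CD103+ DCs (log2 0.42, SE 0.15, adjusted p = 0.021). The tissue effects differed between subsets (F test, adjusted p = 6.2e-07).

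**Figure D2:**
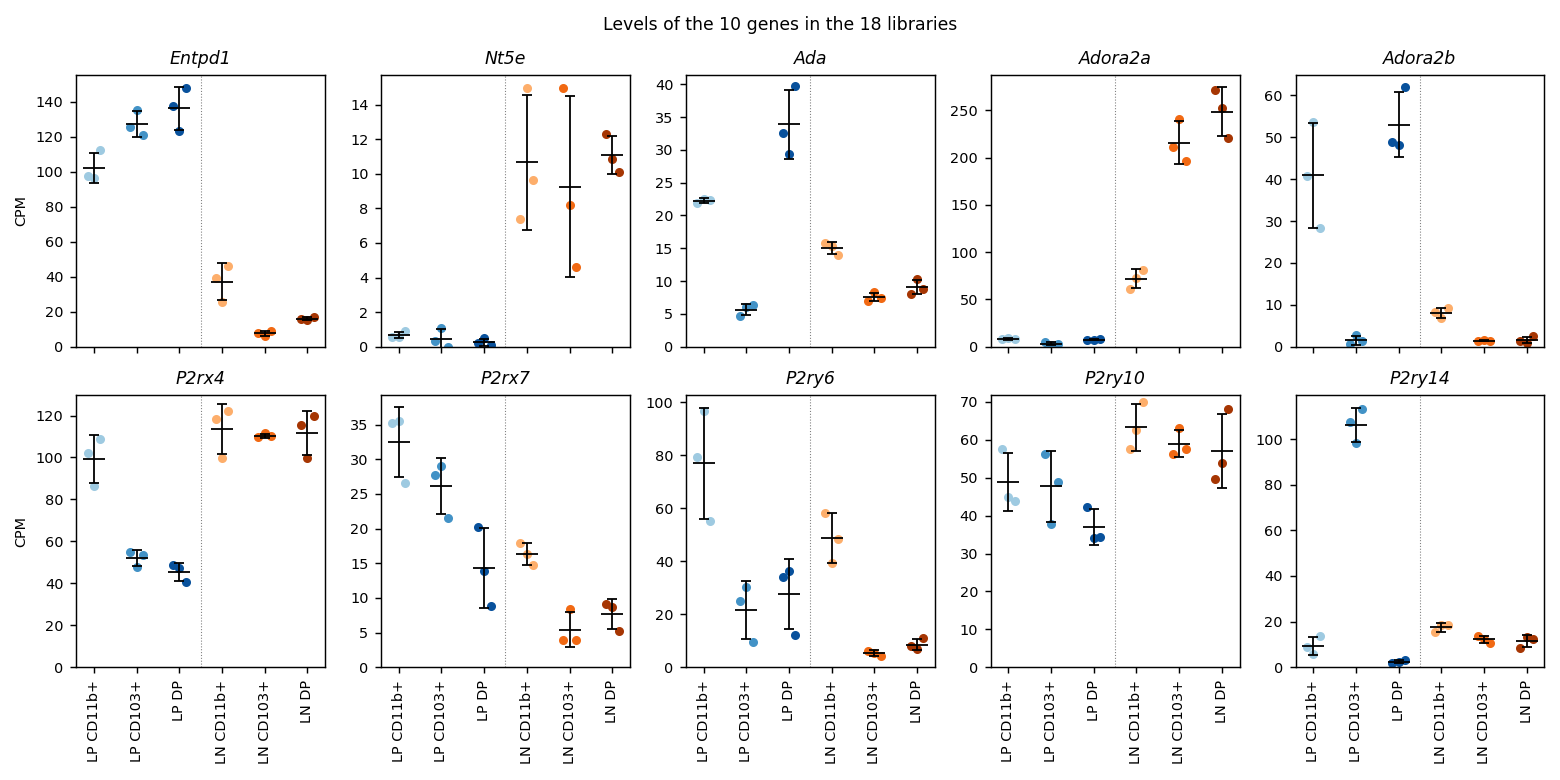
CPM (y axis, linear from 0, a scale for each gene) of the 10 genes in the 6 groups (x axis, DP is double-positive), with a point for each of the 3 libraries and the mean with its SD in black. Entpd1 is high in all 9 LP libraries and Nt5e and Adora2a in all 9 LN libraries, whereas P2ry14 is high only in the 3 LP CD103+ libraries, at 98.2 to 113 CPM.

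Of the adenosine receptors, Adora2a was higher in the LN in all 3 subsets, and Adora2b was higher in the LP in the subsets that carry CD11b. Adora2a encodes the high-affinity adenosine receptor that raises cyclic AMP and lies at chr10:75316877-75334784 (GRCm38, plus strand, ENSMUSG00000020178). In the LP, Adora2a was at 7.65, 9.48 and 7.68 CPM in CD11b+ DCs, at 4.42, 1.74 and 3.22 CPM in CD103+ DCs and at 7.23, 7.52 and 7.64 CPM in double-positive DCs. In the LN, Adora2a was at 61.4, 72.3 and 81.4 CPM in CD11b+ DCs, at 211, 240 and 196 CPM in CD103+ DCs and at 272, 253 and 221 CPM in double-positive DCs. All LN libraries were above all LP libraries, and only LN double-positive and LN CD103+ DCs overlapped. The rise was 8.68-fold in CD11b+ DCs (log2 3.12, SE 0.21, adjusted p = 9.3e-09), 71.2-fold in CD103+ DCs (log2 6.15, SE 0.24, adjusted p = 1.8e-12) and 33.3-fold in double-positive DCs (log2 5.06, SE 0.22, adjusted p = 1.3e-11). It differed between subsets (F test, adjusted p = 1.2e-06). The summed level of 6 DC maturation genes (Ccr7, Fscn1, Cd40, Cd86, Ccl22 and Relb) moved with it, at 532 to 1718 CPM in the LP, 3142 to 4612 CPM in LN CD11b+ DCs, 24952 to 25984 CPM in LN CD103+ DCs and 19298 to 21240 CPM in LN double-positive DCs. The 3 libraries of LN CD11b+ DCs had the same order by this sum and by Adora2a, those of LN double-positive DCs the reverse order, and those of LN CD103+ DCs neither. Of the 6 maturation genes, 5 were called higher in the LN in each subset. Cd86 was not, and in CD103+ DCs it was called lower, at 512 to 646 CPM in the LP and 140 to 154 CPM in the LN. In double-positive DCs Cd86 was at 160 to 203 CPM in the LP and 97.5 to 130 CPM in the LN. The part of maturation state in the Adora2a difference was not tested.

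Adora2b, which encodes the adenosine receptor of lower affinity, marked LP DCs that carry CD11b. It lies at chr11:62248984-62266453 (GRCm38, plus strand, ENSMUSG00000018500). In the LP, Adora2b was at 40.7, 53.6 and 28.4 CPM in CD11b+ DCs, at 0.531, 2.75 and 1.26 CPM in CD103+ DCs and at 48.9, 48.1 and 61.9 CPM in double-positive DCs. In the LN, Adora2b was at 8.16, 6.85 and 9.29 CPM in CD11b+ DCs, at 1.37, 1.52 and 1.31 CPM in CD103+ DCs and at 1.29, 0.977 and 2.47 CPM in double-positive DCs. LP double-positive and LP CD11b+ DCs overlapped at the top, LN CD11b+ DCs stood alone below them, and the 3 remaining groups overlapped at the bottom. The fall from LP to LN was 5.05-fold in CD11b+ DCs (log2 -2.34, SE 0.38, adjusted p = 1.4e-04) and 34.1-fold in double-positive DCs (log2 -5.09, SE 0.45, adjusted p = 4.4e-08). In CD103+ DCs the log2 difference was -0.17 (95% interval -1.11 to 0.76, adjusted p = 0.75), and it was 0.64 without LP CD103+ replicate 2, which supplied 128 of the counts there against 15 and 31 in the other two libraries. The effect differed between subsets (F test, adjusted p = 2.3e-05). The summed level of 8 epithelial genes, which Epcam and Cdh1 dominate, was also higher in LP double-positive DCs, at 573 to 826 CPM, and LP CD11b+ DCs, at 216 to 499 CPM, than in LP CD103+ DCs, at 56.2 to 100 CPM. Between LP double-positive and LP CD103+ DCs, Epcam and Cdh1 were the only 2 of the 8 called higher, and Fabp2 was at 4.44 to 5.85 CPM in the first and 9.66 to 10.9 CPM in the second. The libraries had the same order by the epithelial sum and by Adora2b in LP double-positive DCs, while in LP CD11b+ DCs the highest sum went with the least Adora2b. The part of epithelial transcripts in the Adora2b difference was not tested.

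Levels of different genes were compared as CPM per kb of exon, with all annotated exons of a gene merged. That length was 11.1 kb for P2ry14 and 5.58 kb for Entpd1, so ranks and shares depend on it. In LP CD103+ DCs the means of these genes were 106 and 127 CPM before this scaling. On this scale Adora2a over Adora2b was 0.107 to 0.163 in LP CD11b+ DCs and 0.0743 to 0.0943 in LP double-positive DCs. In LP CD103+ DCs, where both receptors were low, it ran from 0.381 to 5.02. It was 4.54 to 6.36 in LN CD11b+ DCs, 90.02 to 95.4 in LN CD103+ DCs and 54.0 to 156 in LN double-positive DCs. Adora2b was thus the more abundant of the pair in every LP library of the CD11b-bearing subsets, and Adora2a in every LN library. By mean CPM per kb, P2ry6 led the 10 genes in LP CD11b+ DCs at 26.7, Entpd1 in LP CD103+ DCs at 22.8 and Adora2b in LP double-positive DCs at 28.7. Adora2a led in all 3 LN groups, at 23.4 for CD11b+ DCs, 70.5 for CD103+ DCs and 81.2 for double-positive DCs. It made up 23.02%, 60.3% and 62.0% of the length-scaled sum of the 10 genes in these groups.

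**Figure D3:**
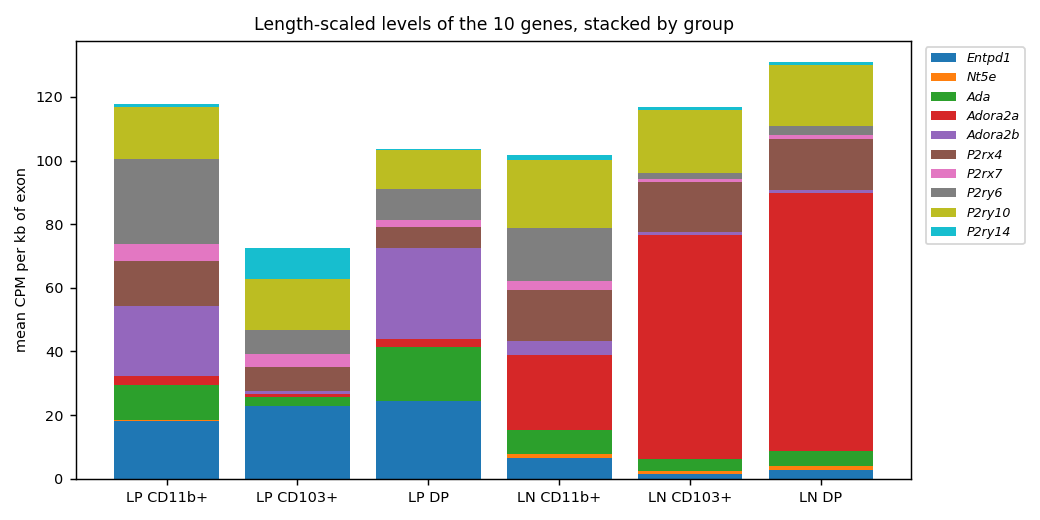
Mean CPM per kb of exon (y axis, linear from 0) of the 10 genes, stacked for each of the 6 groups (x axis, 3 libraries each, DP is double-positive). Adora2a takes up 60.3% of the bar in LN CD103+ DCs and 62.0% in LN double-positive DCs, while Adora2b is the largest segment in LP double-positive DCs.

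P2rx4 and P2rx7 encode ATP-gated cation channels, of which P2X7 opens only at high ATP and is known for inflammasome activation, while P2X4 responds to low ATP. The genes are neighbours on chromosome 5 on the plus strand, P2rx7 at chr5:122643911-122691432 (ENSMUSG00000029468) and P2rx4 at chr5:122707544-122729738 (ENSMUSG00000029470, both GRCm38), 16.1 kb apart. In the LP, P2rx4 was at 102, 86.4 and 109 CPM in CD11b+ DCs, at 55.0, 47.7 and 53.5 CPM in CD103+ DCs and at 48.7, 47.2 and 40.5 CPM in double-positive DCs. In the LN, P2rx4 was at 119, 99.9 and 122 CPM in CD11b+ DCs, at 110, 112 and 110 CPM in CD103+ DCs and at 116, 99.5 and 120 CPM in double-positive DCs. The LN groups overlapped one another, and LP CD103+ and LP double-positive DCs lay apart below LP CD11b+ DCs. P2rx4 was 2.12-fold higher in the LN in CD103+ DCs (log2 1.09, SE 0.11, adjusted p = 1.3e-07) and 2.45-fold higher in double-positive DCs (log2 1.29, SE 0.11, adjusted p = 2.1e-08). The log2 difference in CD11b+ DCs was 0.20 (95% interval -0.03 to 0.42, adjusted p = 0.15), and the 3 effects differed (F test, adjusted p = 3.0e-05). The CD103+ value lies near the fold limit and was 0.86 on total counts without scaling, which ended that call.

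P2rx7 went the other way. In the LP, P2rx7 was at 35.2, 35.5 and 26.6 CPM in CD11b+ DCs, at 27.7, 29.1 and 21.6 CPM in CD103+ DCs and at 20.2, 13.9 and 8.85 CPM in double-positive DCs. In the LN, P2rx7 was at 17.9, 16.4 and 14.7 CPM in CD11b+ DCs, at 3.98, 8.35 and 3.99 CPM in CD103+ DCs and at 9.14, 8.73 and 5.18 CPM in double-positive DCs. LP CD11b+ and LP CD103+ DCs overlapped and stood apart above the other groups, each of which overlapped its neighbour. The fall was 4.80-fold in CD103+ DCs (log2 -2.26, SE 0.32, adjusted p = 1.0e-05). In CD11b+ DCs the log2 difference was -0.99 (SE 0.30, adjusted p = 0.016) and in double-positive DCs -0.89 (SE 0.31, adjusted p = 0.019), both short of the call. The first was called with no filter (adjusted p = 7.8e-03) and with DESeq2 as the test (log2 -1.01, adjusted p = 2.6e-03), and the second on total counts (-1.06, adjusted p = 7.3e-03). Without LP double-positive replicate 3, the lowest LP library, the double-positive value was called at -1.14 (adjusted p = 4.4e-03). Per kb of exon, P2rx4 over P2rx7 was 1.40 to 3.89 in the 9 LP libraries, 5.18 to 7.05 in LN CD11b+ DCs, 11.4 to 23.4 in LN CD103+ DCs and 9.69 to 19.6 in LN double-positive DCs. P2X4 transcripts were the more abundant in every library, and the LN ratios did not overlap those of the LP.

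The windows of 250 bases before the first RefSeq start site of each channel gene (GRCm38.p6) are printed side by side because these neighbours moved in opposite directions in CD103+ DCs. Both are on the plus strand, at chr5:122643677-122643926 for P2rx7 and chr5:122707294-122707543 for P2rx4. Capitals mark the AP-1 motif TGANTCA, searched on both strands, which 6.75% of 32851 promoter windows of this length hold.
P2rx7: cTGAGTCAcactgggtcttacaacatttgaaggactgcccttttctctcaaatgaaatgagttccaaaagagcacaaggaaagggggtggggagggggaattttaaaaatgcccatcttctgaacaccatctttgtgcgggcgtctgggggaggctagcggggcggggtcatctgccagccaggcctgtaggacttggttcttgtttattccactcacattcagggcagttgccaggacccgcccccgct
P2rx4: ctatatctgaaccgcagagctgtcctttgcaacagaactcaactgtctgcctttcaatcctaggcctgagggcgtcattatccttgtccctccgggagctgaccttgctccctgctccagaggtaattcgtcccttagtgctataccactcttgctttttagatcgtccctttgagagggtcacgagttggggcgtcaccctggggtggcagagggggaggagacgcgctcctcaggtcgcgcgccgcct
The P2rx7 window held 1 AP-1 match, at its far end, and the P2rx4 window held no match to any of the 4 motifs searched. Besides AP-1 these were the ETS core AGGAAGT (7.69% of windows), the E-box CACGTG (6.02%) and the cyclic AMP response element TGACGTCA (1.55%). Windows were listed for 14 start sites of 8 members, not for Adora2a and P2ry6, and 5 of the 14 held a match. A match is a run of letters and not a mapped binding site.

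P2ry6 encodes a receptor for UDP and was highest in CD11b+ DCs of both tissues. It lies at chr7:100937630-100974649 (GRCm38, minus strand, ENSMUSG00000048779). In the LP, P2ry6 was at 79.2, 96.8 and 55.1 CPM in CD11b+ DCs, at 25.1, 30.5 and 9.51 CPM in CD103+ DCs and at 34.0, 36.4 and 12.3 CPM in double-positive DCs. In the LN, P2ry6 was at 58.1, 39.2 and 48.6 CPM in CD11b+ DCs, at 6.26, 5.57 and 4.34 CPM in CD103+ DCs and at 7.85, 6.88 and 10.9 CPM in double-positive DCs. Replicate 3 was the lowest LP library in each subset, and the LP and LN libraries of CD11b+ DCs overlapped. P2ry6 fell 4.04-fold in CD103+ DCs (log2 -2.01, SE 0.42, adjusted p = 4.9e-04) and 3.24-fold in double-positive DCs (log2 -1.70, SE 0.41, adjusted p = 1.7e-03). In CD11b+ DCs the log2 difference was -0.66 (95% interval -1.47 to 0.15, adjusted p = 0.19). The double-positive call was lost without LP double-positive replicate 2 (log2 -1.44, adjusted p = 0.011) or without LN double-positive replicate 2 (log2 -1.57, adjusted p = 0.011). P2ry6 is also known in macrophages, whose 8 markers summed to 656 to 1478 CPM in LP CD11b+ DCs. The sum was 285 to 320 CPM in LP double-positive DCs and 37.2 to 45.7 CPM in LP CD103+ DCs. In the LN it was 280 to 452 CPM in CD11b+, 78.5 to 83.0 CPM in double-positive and 10.5 to 13.8 CPM in CD103+ DCs. In LP CD11b+ and LP CD103+ DCs the order of the 3 libraries by this sum was the reverse of that by P2ry6, whose replicate 3 was low in every LP subset. In LN CD11b+ DCs the lowest sum, 280 CPM, went with the least P2ry6, and in LN CD103+ and LN double-positive DCs the highest sum went with the most. Fcgr1, which encodes the macrophage marker CD64, was at 7.90 to 11.1 CPM in LP CD11b+ DCs and at 0 in all LN CD103+ libraries. Of the 8 markers, 6 were called lower in LP double-positive than in LP CD11b+ DCs. Adgre1 was called higher, at 177 to 210 CPM in LP double-positive and 79.1 to 122 CPM in LP CD11b+ DCs. The part of macrophage transcripts in the P2ry6 values was not tested.

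P2ry14, a receptor for UDP-glucose, was the 1 member called in opposite directions between tissues. It lies at chr3:59113855-59153618 (GRCm38, minus strand, ENSMUSG00000036381). In the LP, P2ry14 was at 8.72, 6.00 and 13.7 CPM in CD11b+ DCs, at 107, 98.2 and 113 CPM in CD103+ DCs and at 2.05, 2.14 and 3.07 CPM in double-positive DCs. In the LN, P2ry14 was at 15.3, 18.7 and 18.5 CPM in CD11b+ DCs, at 13.8, 12.2 and 10.6 CPM in CD103+ DCs and at 8.48, 13.5 and 12.6 CPM in double-positive DCs. LP CD103+ DCs stood far above all other groups and LP double-positive DCs below them, and the LN groups were close together. P2ry14 fell 8.71-fold in CD103+ DCs (log2 -3.12, SE 0.25, adjusted p = 1.3e-08) and rose 4.75-fold in double-positive DCs (log2 2.25, SE 0.26, adjusted p = 1.4e-06). In CD11b+ DCs the log2 difference of 0.88 (SE 0.24, adjusted p = 7.8e-03) was under the fold limit, and it was called at 1.25 without LP CD11b+ replicate 3. The effects differed between subsets (F test, adjusted p = 1.8e-08). The 6 cDC1 markers summed to 7730 to 8235 CPM in LP CD103+ DCs, 257 to 292 CPM in LP double-positive DCs, 1989 to 2057 CPM in LN CD103+ DCs and 939 to 1119 CPM in LN double-positive DCs. This sum moved in the same directions as P2ry14 in these subsets, with 5 of the 6 markers called lower in CD103+ DCs and 4 of 6 called higher in double-positive DCs. Not all did, since Batf3 was at 143 to 156 CPM in LP and 142 to 182 CPM in LN CD103+ DCs, and Tlr3 at 26.0 to 30.1 CPM in LP and 16.5 to 21.4 CPM in LN double-positive DCs. In CD11b+ DCs the cDC1 sum was 310 to 317 CPM in the LP and 580 to 642 CPM in the LN. Among the LN groups, CD11b+ DCs thus had the lowest cDC1 sum and the most P2ry14. The part of cDC1 content in the P2ry14 values was not tested.

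P2ry10, which despite its name is known as a receptor for lysophosphatidylserine, was the steadiest of the genes. It lies at chrX:107088492-107104974 (GRCm38, plus strand, ENSMUSG00000050921). In the LP, P2ry10 was at 57.6, 45.0 and 43.9 CPM in CD11b+ DCs, at 56.4, 37.9 and 49.0 CPM in CD103+ DCs and at 42.4, 34.2 and 34.4 CPM in double-positive DCs. In the LN, P2ry10 was at 57.6, 62.6 and 69.9 CPM in CD11b+ DCs, at 56.2, 63.2 and 57.7 CPM in CD103+ DCs and at 49.5, 53.8 and 68.2 CPM in double-positive DCs. Each group overlapped its neighbour in the order, and the highest group mean was 1.71 times the lowest, the smallest such span of the 10 genes. The log2 difference between tissues was 0.38 (SE 0.15, adjusted p = 0.062) in CD11b+ DCs, 0.31 (SE 0.15, adjusted p = 0.092) in CD103+ DCs and 0.63 (SE 0.15, adjusted p = 2.1e-03) in double-positive DCs, the last under the fold limit. Of the 75-base windows of its transcripts, 2.89% are shared with P2ry10b, whose own level was at most 5.71 CPM.

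**Figure D4:**
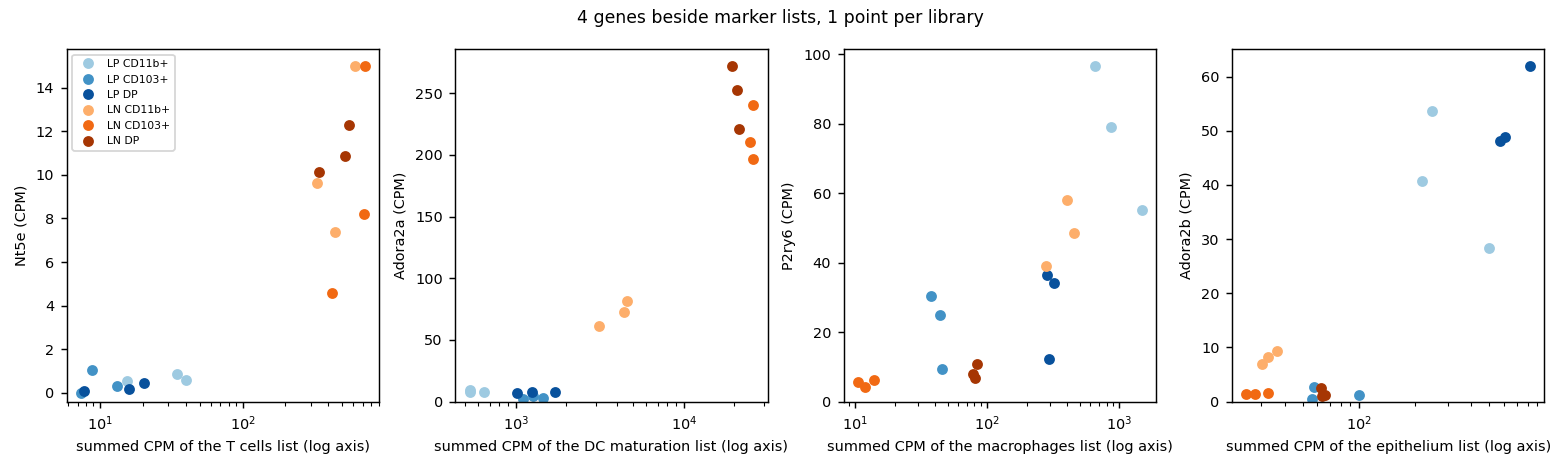
CPM of Nt5e, Adora2a, P2ry6 and Adora2b (y axes, linear) against the summed CPM of the T cell, DC maturation, macrophage and epithelial lists (x axes, log scale), with a point for each of the 18 libraries coloured by group. Nt5e is at 4.6 CPM or more where the T cell sum is 330 CPM or more, and the macrophage sum is highest, at 656 to 1478 CPM, in LP CD11b+ DCs, whose P2ry6 is at 55.1 to 96.8 CPM.

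The second question was how the subsets differed within each tissue. In the LP, 5 of the 10 genes were called between CD103+ and CD11b+ DCs, against 15.7% of all tested genes. P2ry14 was 11.2-fold higher in CD103+ DCs (log2 3.48, SE 0.26, adjusted p = 1.4e-08). Adora2b was 25.8-fold lower (log2 -4.69, SE 0.43, adjusted p = 2.0e-07), Ada 3.93-fold lower (log2 -1.97, SE 0.15, adjusted p = 1.9e-08), P2ry6 3.54-fold lower (log2 -1.82, SE 0.39, adjusted p = 1.5e-03) and Adora2a 2.72-fold lower (log2 -1.45, SE 0.23, adjusted p = 7.4e-05). Adora2a, Adora2b and the enzyme that removes adenosine were thus lower in LP CD103+ DCs, while Adora3, another adenosine receptor, was at 3.46 to 4.37 CPM there and 1.65 to 2.24 CPM in LP CD11b+ DCs, a difference that was not called (adjusted p = 0.18). Without LP CD103+ replicate 2 the value of Adora2b was -5.52. In a fit of only the 6 libraries compared, Adora2a was not called (adjusted p = 0.014).

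Between LP double-positive and LP CD11b+ DCs 2 of the 10 were called, against 4.81% of genes. P2rx4 was 2.18-fold lower in double-positive DCs (log2 -1.12, SE 0.11, adjusted p = 3.3e-06) and P2ry14 3.93-fold lower (log2 -1.97, SE 0.26, adjusted p = 8.4e-05). With the replicate number as a block in a fit of the 9 LP libraries, 4 genes were called, since P2rx7 (log2 -1.24, adjusted p = 1.8e-03) and P2ry6 (log2 -1.62, adjusted p = 9.2e-04) were then also lower. Between LP double-positive and LP CD103+ DCs 4 of the 10 were called, against 13.6%. Adora2b was 33.4-fold higher in double-positive DCs (log2 5.06, SE 0.44, adjusted p = 1.1e-07), Ada 5.98-fold higher (log2 2.58, SE 0.15, adjusted p = 1.0e-09) and Adora2a 2.46-fold higher (log2 1.30, SE 0.23, adjusted p = 2.4e-04), while P2ry14 was 43.8-fold lower (log2 -5.45, SE 0.29, adjusted p = 2.9e-10). Without LP CD103+ replicate 2 the value of Adora2b was 5.89, and that of Adora2a was 0.95, under the fold limit. P2rx4 was not called between LP double-positive and LP CD103+ DCs (log2 -0.19, SE 0.11, adjusted p = 0.18).

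In the LN, both comparisons with CD11b+ DCs called the genes Adora2a, Entpd1, P2rx7, P2ry6 and Adora2b. They share the CD11b+ libraries. For CD103+ DCs these were 5 of 10, against 25.9% of genes, and for double-positive DCs 5 of 10, against 16.7%. Adora2a was 3.01-fold higher in CD103+ DCs (log2 1.59, SE 0.19, adjusted p = 2.0e-06) and 3.47-fold higher in double-positive DCs (log2 1.79, SE 0.19, adjusted p = 9.8e-07) than in CD11b+ DCs. Entpd1 was 4.87-fold lower in CD103+ DCs (log2 -2.28, SE 0.18, adjusted p = 1.5e-08) and 2.31-fold lower in double-positive DCs (log2 -1.21, SE 0.17, adjusted p = 1.9e-05). P2ry6 was 9.01-fold lower (log2 -3.17, SE 0.43) and 5.71-fold lower (log2 -2.51, SE 0.41) in the same order, and Adora2b 5.77-fold lower (log2 -2.53, SE 0.42) and 5.22-fold lower (log2 -2.38, SE 0.42). Among the LN groups, transcripts of Entpd1, P2ry6 and Adora2b were thus most abundant in CD11b+ DCs, and those of Adora2a least. P2rx7 was lower in CD103+ DCs (log2 -1.59, SE 0.32, adjusted p = 4.3e-04). In double-positive DCs P2rx7 was at -1.09 (SE 0.31, adjusted p = 8.9e-03), a call that was lost on leaving out any 1 of 11 single libraries, and without the 2 libraries with both Xist and Ddx3y (log2 -0.94, adjusted p = 0.061).

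Ada lay just under the fold limit in LN CD103+ against LN CD11b+ DCs (log2 -0.99, SE 0.15, adjusted p = 2.3e-05) and at -0.73 (SE 0.14, adjusted p = 5.9e-04) in LN double-positive DCs. The first was called on total counts (-1.42), with no filter (-1.03), without the 2 libraries with both Xist and Ddx3y (-1.04) and on leaving out any 1 of 8 single libraries (-1.01 to -1.08), namely LP CD103+ replicates 2 and 3, LN CD11b+ replicates 2 and 3, LN CD103+ replicate 2 and each LN double-positive replicate. The second was called on total counts (-1.10).

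Between LN double-positive and LN CD103+ DCs only Entpd1 of the 10 was called, 2.10-fold higher in double-positive DCs (log2 1.07, SE 0.18, adjusted p = 2.8e-04), against 6.53% of all genes. Without LN CD103+ replicate 2 it was at 0.94, under the fold limit, so that no member was called. Leaving out the 2 libraries with both Xist and Ddx3y changed no call of the 10 genes between tissues. In the libraries left, tissue and sex still cannot be told apart, so this does not separate them.

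Other genes of nucleotide and adenosine handling were taken from a fixed list of 30, of which 24 were tested. Those not tested were P2rx3, P2ry4, Adora1, Entpd8, Enpp3 and Entpd4, which reached at most 1.29 CPM in any library. The LN was called higher for 2 and lower for 1 of the 24 in CD11b+ DCs, higher for 4 and lower for 7 in CD103+ DCs, and higher for 8 and lower for 4 in double-positive DCs. In either direction these were 3, 11 and 12 of the 24, where 15.2%, 35.0% and 32.1% of all tested genes were called. In all, 15 of the 24 were called in at least 1 subset, against 45.4% of all genes, and for 12 the F test called a difference between subsets, against 31.5%.

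Entpd3, another enzyme that degrades extracellular nucleotides, was lower in the LN in all 3 subsets, as Entpd1 was. It was at 7.86 to 15.8 CPM in LP double-positive DCs, 1.72 to 6.35 CPM in LP CD11b+ DCs and 0.989 to 3.47 CPM in LP CD103+ DCs, and at most 0.547 CPM in the LN. Entpd2 went the other way in double-positive DCs, called higher in the LN (log2 3.52, SE 0.93, adjusted p = 3.8e-03), but reached at most 1.49 CPM in any library. Also at low levels, P2rx6, Alpl and P2ry1 were called higher in LN than LP double-positive DCs (log2 5.97, 4.48 and 4.06). P2rx6 and P2ry1 were also called higher in LN CD103+ DCs (log2 3.92 and 3.06), and Alpl in LN CD11b+ DCs (log2 1.40). These 3 genes reached at most 5.44, 4.63 and 6.75 CPM in any library. Slc29a1, an equilibrative nucleoside transporter that moves adenosine across the membrane, was at 96.3 to 121 CPM in LP double-positive and 18.2 to 22.9 CPM in LN double-positive DCs (log2 -2.41, SE 0.13, adjusted p = 9.8e-11). In CD103+ DCs Slc29a1 went from 42.6 to 45.8 CPM in the LP to 15.4 to 20.9 CPM in the LN (log2 -1.30, SE 0.13, adjusted p = 1.2e-07). Panx1, a channel that releases ATP, was at 9.91 to 12.2 CPM in LP CD103+ and 27.5 to 34.0 CPM in LN CD103+ DCs (log2 1.46, SE 0.12, adjusted p = 2.5e-08).

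Among the other receptors, P2ry12, which senses ADP, was lower in LN CD103+ DCs, at 0.422 to 0.877 CPM against 6.98 to 10.5 CPM in the LP (log2 -3.71, SE 0.41, adjusted p = 5.9e-07). P2ry13, also an ADP receptor, was at 8.01 to 10.96 CPM in LN double-positive DCs and 2.24 to 2.51 CPM in LP double-positive DCs (log2 2.03, SE 0.33, adjusted p = 5.2e-05). It was highest in the CD11b+ DCs of both tissues, at 21.6 to 53.5 CPM in the LP and 22.2 to 44.9 CPM in the LN. The ATP-gated channel P2rx5 was at 46.0 to 52.3 CPM in LN and 20.1 to 21.7 CPM in LP double-positive DCs (log2 1.24, SE 0.19, adjusted p = 3.0e-05). P2rx5 was also called higher in LN CD103+ DCs, at 24.4 to 37.2 CPM against 8.49 to 10.7 CPM in the LP (log2 1.68, SE 0.20, adjusted p = 1.2e-06). Enpp1, which makes AMP directly from ATP, fell in CD103+ DCs (log2 -2.22, SE 0.37, adjusted p = 5.4e-05) and rose in double-positive DCs (log2 1.56, SE 0.38, adjusted p = 1.9e-03), the same signs as P2ry14. Its LP levels were 12.3 to 18.9 CPM in CD103+ and 1.07 to 1.66 CPM in double-positive DCs.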

How the data were processed

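Small-input (Smart-seq v4) RNA-seq libraries of sorted DCs were sequenced on a HiSeq4000 with 75-base reads, per the labels. The authors deposited raw read counts per Ensembl gene, without normalization. The submitters' processing notes name FastQC 0.11.7, STAR 2.6 and GRCm38. The counting mode and annotation release are not given in the sources used here. No wild-type library was analysed, and the paper's own experiments do not include these libraries. Symbols, positions and exon lengths were taken from GENCODE vM21 (GRCm38), in which 54165 of 54232 rows were matched, and promoter windows from RefSeq.

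Counts of the 18 libraries were fitted with edgeR 4.0.16 (R 4.3.3): TMM, filterByExpr by group, a mean for each of 6 groups and the quasi-likelihood test, with Benjamini-Hochberg adjustment over 17074 genes. The script was tested on simulated counts. Nothing in the labels says that replicates came from separate animals, so p-values measure the spread between these libraries, which may be technical. Replicates differed by more than sampling noise (chi-square per gene 14.9 to 64.9). Samples of a group were mapped by title.

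Same-numbered LP libraries deviated together from their group means (r over 0.1 in all 9 pairs, 0.144 to 0.284), so the numbers were taken to pair LP libraries. This held for 1 of 9 LN pairs and 0 of 27 pairs between tissues. Libraries with different numbers were not compared in this way, so the pairing remains an assumption. The main fit did not use it, and the replicate block was run only as an alternative.

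The members, lists and tests were chosen with earlier results of these data known. All members are named, and other pathway genes only where called between tissues. Alternatives were DESeq2 1.42.0 as size factors and as test, total counts, no filter, at least 100 counts in 3 libraries, an adjusted p under 0.05, fewer libraries in the fit, the replicate block and leaving out libraries. The values of 2 genes found by likeness of pattern are not reported here.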

Additional observations from a re-analysis of the deposited data

Results flagged for a closer look

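The tissue effect differed between the 3 DC subsets for 6 of the 10 genes (edgeR quasi-likelihood F test, adjusted p under 0.01). The adjusted p was 7.0e-07 for Entpd1, 3.0e-05 for P2rx4, 1.8e-08 for P2ry14, 1.2e-06 for Adora2a, 2.3e-05 for Adora2b and 6.2e-07 for Ada. In the order CD11b+, CD103+, double-positive, the log2 fold changes of LN over LP were -1.47, -4.07 and -3.09 for Entpd1 and 3.12, 6.15 and 5.06 for Adora2a. Those of P2ry14 were 0.88, -3.12 and 2.25, with called changes of opposite sign.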

How the results depend on the processing

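Calls of the 10 genes kept their direction under every alternative run. The comparison that moved most was LP double-positive with LP CD11b+ DCs, with 821 genes called. It gave 1289 genes at an adjusted p under 0.05 and 506 with only the 6 libraries compared, and it gave 4 members in place of 2 with no filter, with DESeq2 as the test, at an adjusted p under 0.05, with the replicate block over all 18 libraries and with the replicate block in the 9 LP libraries. The numbers were taken to pair only the LP libraries. Apart from these calls the block changed 1 call of a member, P2rx7 in the F test (adjusted p = 3.8e-03 with the block over all libraries). Leaving out 1 library at a time gave 0 to 1 members between LN double-positive and LN CD103+ DCs. The uncalled Adora2b difference in CD103+ DCs, -0.17, ran from -0.56 to 0.64, reversed only without LP CD103+ replicate 2. Total counts in place of TMM moved the median log2 difference of all genes from 0.03 to 0.17 in CD11b+, 0.04 to -0.18 in CD103+ and 0.07 to -0.10 in double-positive DCs, and the share of calls that were higher from 67.6% to 74.7%, 56.7% to 47.3% and 57.8% to 49.7%. Under it 16 of the 60 group levels of the members moved by more than 1 SD. Nt5e in the LP rests on 49 counts or fewer a library, which limits the size of its rise.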

Other observations

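For each gene, the 2 genes outside the set with the most similar pattern were found by Pearson's r of log2(CPM + 1) over the 18 libraries, among 9906 genes. The libraries share their group structure, so these values are descriptions. Among them were Relb (r = 0.995) and Rcsd1 (0.992) for Adora2a, Idh2 (0.990) and Ryr1 (0.989) for Entpd1, Clec4g (0.987) and Siglece (0.981) for Adora2b, and Cd101 (0.981) for Ada. For Nt5e they were Prkcq (0.978) and Fam169b (0.977), for P2ry14 Rab7b (0.969) and Ifi205 (0.965), and for P2ry6 Pepd (0.965) and Rgs18 (0.962). For P2rx4, Pkp3 (0.939) was among them. For P2rx7 they were Zcchc24 (0.940) and Bet1 (0.939), and for P2ry10 Klhl24 (0.884) and Zfp467 (0.853). Within the set, the pairs that followed each other most closely over the 18 libraries were Adora2b with Ada (r = 0.953) and Nt5e with Adora2a (r = 0.919), and Entpd1 ran opposite to Adora2a (r = -0.951).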
